A study of Mus musculus with 15 samples.

Results

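The genes described here are 10 kidney injury and epithelial activation genes, a list given by symbol: Havcr1, Lcn2, Spp1, Clu, Vcam1, Sox9, Krt8, Krt18, Cd44 and Krt20. All 10 were found by symbol among the 46078 genes of the count table. Damaged tubular epithelium is known to lose transport functions and to switch on a repair program, in which cells shed the phosphatidylserine receptor KIM-1 (the product of Havcr1), secrete lipocalin-2, osteopontin and clusterin, display the adhesion molecules VCAM1 and CD44, and express the transcription factor SOX9. The keratins 8, 18 and 20 form intermediate filaments of simple epithelia, and their transcripts are used as signs of epithelial stress. In the glomerulus, CD44 and keratins are known as features of activated parietal epithelial cells, whereas healthy podocytes rely on other filaments, vimentin among them.

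Reads were counted in podocyte fractions of male C57BL/6J mice. Young mice were 4 months old and were not injected. Aged mice, 21 months old, received the rat monoclonal antibody RMP1-14 against PD-1 (aPD1ab) or the isotype control antibody IgG2A 2A3 (IgG2a), each at 12 mg/kg by weekly intraperitoneal injection for 8 weeks. The sample titles of the aPD1ab group give 47 days instead. The fraction was enriched from digested kidney cortex with antibodies against nephrin, a protein of the podocyte slit diaphragm, and magnetic beads, so it is enriched tissue rather than a pure cell type. The labels list 5 mice per group, and 13 columns of the table could be tied to a group: 5 young, 4 IgG2a and 4 aPD1ab. Replicates are numbered in column order within a group. All aged mice carried an injected antibody and the young mice did not, so age and injection cannot be told apart in a comparison of aged with young.

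The libraries held between 19912969 and 32717100 counted reads. IgG2a replicate 1 stood apart from its group: on the principal component with 40.5% of the variance over 16411 genes it scored -16.7, against 71.9 to 84.8 for the other IgG2a libraries, -64.7 to 11.1 for aPD1ab and -41.5 to -24.8 for young. Results that rest on it are given with and without it. Within aPD1ab, replicate 2 was the library at -64.7, against -14.2 to 11.1 for the others of that group. Podocyte markers were detected in every library, with a summed level of 1031 to 1597 CPM (reads counted on a gene, scaled to library size) in young, 572 to 762 in IgG2a and 344 to 953 in aPD1ab. Nephrin itself (Nphs1) was at 64.7 ± 15.9 CPM in young (SD, n = 5), 8.86 ± 7.39 in IgG2a (SD, n = 4) and 27.2 ± 16.9 in aPD1ab (SD, n = 4). Markers of the proximal tubule summed to more than those of podocytes in every library: 10939 to 16680 CPM in young, 8523 in IgG2a replicate 1, 1674 to 2623 in the other IgG2a libraries and 8608 to 24940 in aPD1ab. The lowest podocyte sum (344 CPM) and the highest proximal tubule sum (24940 CPM) of all libraries were both those of aPD1ab replicate 2. In such bulk samples, fewer cells of a type and less RNA per cell cannot be told apart.

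Of the injury genes, Lcn2 and Vcam1 rose in both aged groups against young mice, Sox9, Spp1, Krt8 and Havcr1 also passed the test in the aPD1ab group, and none fell in aged mice while all libraries were kept. Each pair of groups was compared with edgeR's quasi-likelihood test, a gene being called at a Benjamini-Hochberg adjusted p under 0.05 over all genes tested. Krt20 did not pass the filter on low counts in any comparison, which left 9 of the 10 genes with a test. A member that passed the filter could do so through the group in which it was high, so the counts below describe the members and are not support for a common direction.

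For IgG2a (n = 4) against young (n = 5), 2 members were called higher and 0 lower, where 9.05% of all tested genes were called higher and 8.38% lower. The median log2 fold change was 0.88 over the 9 members and 0.04 over all 15953 genes. Without IgG2a replicate 1, 4 members were called higher (Lcn2, Vcam1, Cd44 and Havcr1) and 1 lower (Krt8), but the share of all genes called had then grown to 22.1% higher and 23.5% lower, and the median of the members was -0.06 against -0.01 over all genes. The members' median thus changed sign with a single library. Lcn2 and Vcam1 were the 2 members with no overlap between IgG2a and young, both higher, where 4.88% of tested genes were higher and 9.45% lower without overlap. With IgG2a replicate 1 left out, Cd44 joined them and Clu and Krt8 were lower without overlap, at 18.2% and 28.7% of tested genes.

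For aPD1ab (n = 4) against IgG2a (n = 4), 0 members were called in either direction, and the share of all genes called was 0% higher and 0% lower. The lowest edgeR adjusted p over all genes was 0.102, and 4341 of 15530 genes, 2 of the members among them (Cd44 and Havcr1), had an unadjusted p under 0.05. DESeq2 also called 0 members, with 3 at an unadjusted p under 0.05, at 8.61% of all genes called higher and 5.59% lower. The limma voom fit with sample quality weights called 3 members higher (Krt8, Sox9 and Spp1) and 1 lower (Cd44), at 20.9% and 18.8% of all genes. With IgG2a replicate 1 left out, edgeR called Krt8 and Spp1 higher and Cd44 lower, at 17.1% of all genes called higher and 13.2% lower. With every library kept, all 10 members overlapped between these groups, and 6.61% of tested genes were higher and 4.91% lower without overlap. Without IgG2a replicate 1, Krt8, Sox9 and Spp1 were higher and Cd44 lower with no overlap, as were 25.6% and 17.8% of tested genes.

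For aPD1ab (n = 4) against young (n = 5), 6 members were called higher and 0 lower, where 12.4% of all tested genes were called higher and 9.97% lower. The median was 0.63 over the 9 members and 0.02 over all 15986 genes. Without aPD1ab replicate 4, 3 members were called higher (Lcn2, Sox9 and Vcam1), at 8.3% of all genes called higher and 6.32% lower, and the median of the members was 0.54. The same number, 3, was reached without young replicate 1, 2 or 5. Lcn2, Sox9 and Vcam1 were also the 3 members with no overlap between aPD1ab and young, where 11.3% of tested genes were higher and 10.7% lower without overlap. The comparisons share groups of samples with each other, so their fold changes are not independent.

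**Figure D1:**
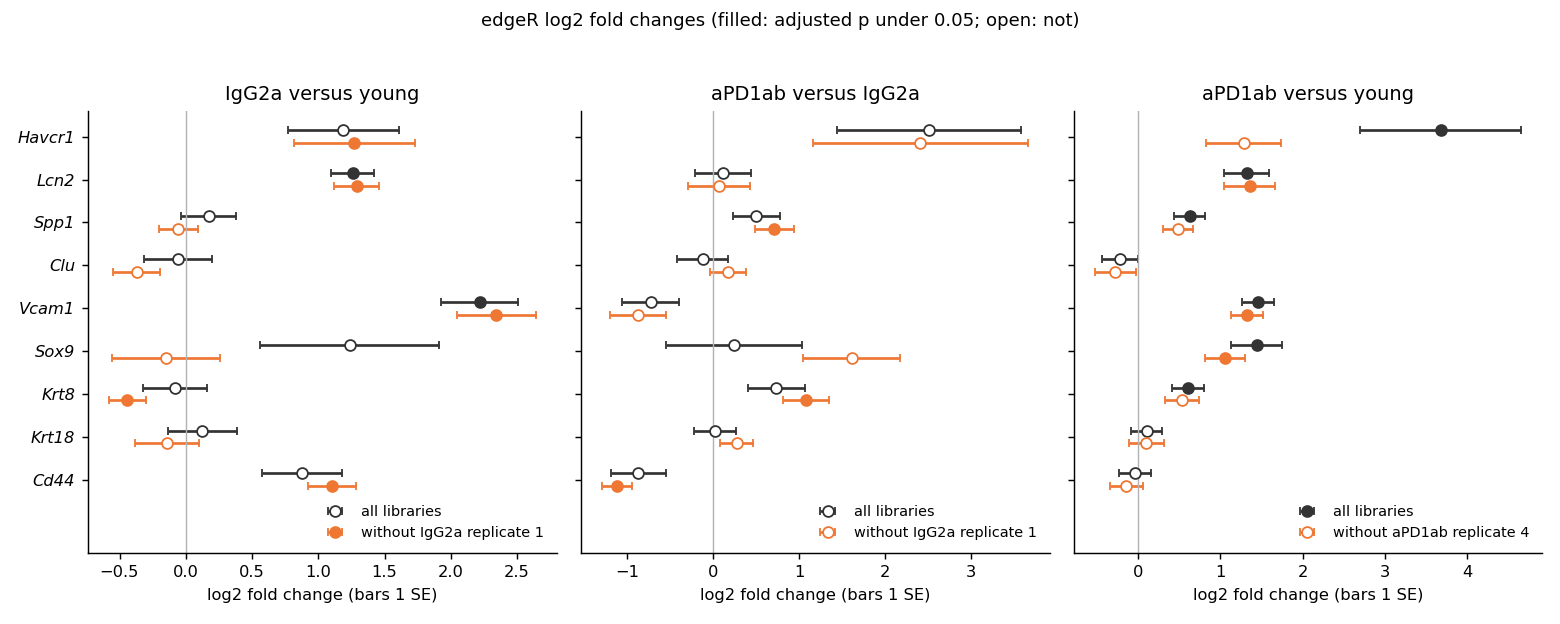
Log2 fold change of each tested member (horizontal axis, bars 1 standard error) in the comparisons IgG2a versus young, aPD1ab versus IgG2a and aPD1ab versus young, with all libraries (black) and without the library named in each panel (orange). Filled points have an edgeR adjusted p under 0.05. Lcn2 and Vcam1 are filled in both comparisons with young, no black point is filled for aPD1ab versus IgG2a, and Sox9 moves across 0 in IgG2a versus young when replicate 1 is left out.

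Levels of different genes were compared per kilobase of merged exon. In young mice the order of the mean levels was Spp1 (421 ± 61.9 CPM per kb; SD, n = 5), Clu (150.3 ± 35.2), Krt8 (37.0 ± 4.63), Krt18 (20.3 ± 5.72), Cd44 (7.72 ± 1.62), Vcam1 (4.25 ± 0.962), Lcn2 (1.83 ± 0.260), Sox9 (1.05 ± 0.228), Havcr1 (0.266 ± 0.131) and Krt20 (0.0613 ± 0.0561). Only Cd44 and Vcam1 were neighbours whose ranges over the young libraries overlapped. In IgG2a Vcam1 stood above Cd44 (18.8 ± 8.05 and 13.3 ± 5.13 CPM per kb; SD, n = 4) with overlapping ranges, and Krt8, Krt18 and Vcam1 could not be ordered by their ranges either. In aPD1ab the mean of Havcr1 (3.34 ± 5.41 CPM per kb; SD, n = 4) lay above that of Sox9 (2.83 ± 1.41), again with overlapping ranges. The secreted phosphoprotein Spp1 and the chaperone Clu thus led the order in all 3 groups, and Krt20 had the lowest mean. The range of Krt20 overlapped those of Havcr1 and Sox9 in IgG2a and in aPD1ab.

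**Figure D2:**
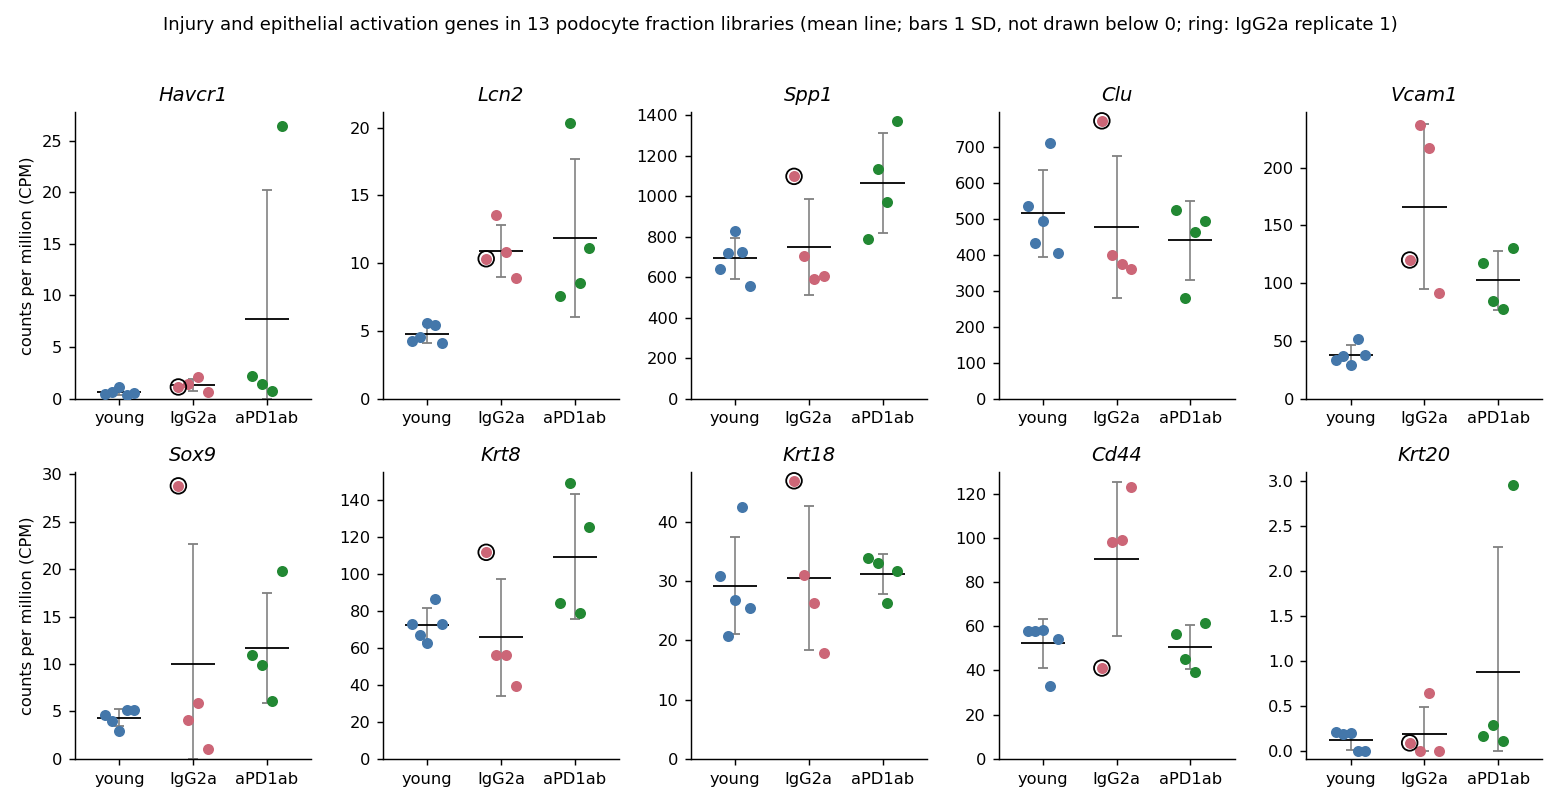
CPM of each of the 10 genes (vertical axis, a separate linear scale for each panel) in the 5 young, 4 IgG2a and 4 aPD1ab libraries. Points are libraries, lines are group means, bars are 1 SD and are not drawn below 0, and the ring marks IgG2a replicate 1. All aged libraries lie above all young libraries for Lcn2 and Vcam1, and a single aPD1ab library is far above the rest for Havcr1 and Krt20.

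Lcn2 (ENSMUSG00000026822, chromosome 2, 32384633 to 32388252, minus strand, GRCm38) encodes neutrophil gelatinase-associated lipocalin, an iron siderophore-binding protein that is released by stressed tubules and by neutrophils and is taken up through megalin. Lcn2 was at 4.27, 4.57, 5.61, 5.41 and 4.10 CPM in the young libraries, at 10.3, 13.5, 10.8 and 8.94 in IgG2a and at 7.55, 20.4, 8.52 and 11.1 in aPD1ab. All 8 aged libraries were above all young libraries. The log2 fold change was 1.26 for IgG2a against young (SE 0.16, edgeR adjusted p = 0.00375) and 1.32 for aPD1ab against young (SE 0.27, edgeR adjusted p = 0.00948). Between the aged groups it was 0.11 (SE 0.33, edgeR adjusted p = 0.843), and its sign turned without aPD1ab replicate 2, to -0.30. Leaving out IgG2a replicate 1 gave a change from young of 1.29 (edgeR adjusted p = 0.000172).

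The 5 neutrophil markers summed to 18.2 to 34.9 CPM in young, 28.5 to 70.0 in IgG2a and 25.3 to 49.1 in aPD1ab, and the defining marker Ly6g was at 0 in 12 of the 13 libraries and at 4 counts in the other. Csf3r alone was at 26.5 CPM in young replicate 1, 26.6 in IgG2a replicate 1 and 63.8 in IgG2a replicate 2. The sums of these libraries were 29.9, 28.5 and 65.95 CPM, so they follow mainly that gene. In IgG2a replicate 1 and aPD1ab replicate 4 the neutrophil sum (28.5 and 25.3 CPM) was within the range of the young libraries, while Lcn2 was at 10.3 and 11.1 CPM. The part of neutrophils in the level of Lcn2 was not tested in any library.

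Havcr1 (ENSMUSG00000040405, chromosome 11, 46735080 to 46779578, plus strand, GRCm38) encodes KIM-1, which lets injured proximal tubule cells engulf apoptotic debris. Its counts were low, at 10 to 28 reads per library in young mice and 10 to 40 in IgG2a. Havcr1 was at 0.415, 0.614, 1.11, 0.336 and 0.597 CPM in young, at 1.13, 1.39, 2.14 and 0.672 in IgG2a and at 2.21, 1.42, 0.784 and 26.5 in aPD1ab. The last value, from 933 reads in aPD1ab replicate 4, was 12.0 times the next highest of all libraries. The other aPD1ab libraries overlapped both the IgG2a and the young libraries.

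The log2 fold change of Havcr1 for aPD1ab against young was 3.68 (SE 0.98, edgeR adjusted p = 0.0239), a value that rests on that library: without aPD1ab replicate 4 it was 1.28 (SE 0.45, edgeR adjusted p = 0.0822). The call was also lost without young replicate 1, 2, 4 or 5, at fold changes of 3.51 to 3.67 and edgeR adjusted p-values of 0.0522 to 0.0600, and with no filter on low counts. DESeq2 gave this gene no adjusted p. For IgG2a against young the change was 1.19 (SE 0.42, edgeR adjusted p = 0.0742) and without IgG2a replicate 1 it was 1.27 (SE 0.46, edgeR adjusted p = 0.0414). Between the aged groups it was 2.51 (SE 1.07, edgeR adjusted p = 0.170) and 0.13 without aPD1ab replicate 4.

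Krt20 (ENSMUSG00000035775, chromosome 11, 99428403 to 99438150, minus strand, GRCm38), a keratin of intestinal and urothelial epithelium that appears in damaged tubules, was near or at the detection limit in 12 of the 13 libraries, with 0 to 12 reads. Its level was 0.207, 0.184, 0.199, 0 and 0 CPM in young, 0.0895, 0, 0.642 and 0 in IgG2a and 0.161, 0.285, 0.112 and 2.95 in aPD1ab. A library with 0 reads allows up to 3 counts, between 0.101 and 0.202 CPM in the 4 libraries concerned, and such limits cover counting error only. The highest value, from 104 reads, came again from aPD1ab replicate 4 and was 10.4 times the next in its group. No fold change is given for Krt20.

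The same library, aPD1ab replicate 4, also held the highest Sox9, Spp1, Vcam1 and Cd44 of its group. Fgg, the fibrinogen gamma chain, which injured tubules are known to produce, was at 47.2 CPM there, 33.9 in aPD1ab replicate 2 and 0.740 to 9.19 in all other libraries. The summed proximal tubule markers of this library (11887 CPM) lay inside the range of the young libraries.

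Promoters of the genes that were high in this library are shown because Havcr1 and Krt20 were carried by it together. Sequences from 250 bases before to 50 bases after the annotated start were taken from RefSeq (GRCm38.p6), where 7 of the 10 members were matched, with 10 start sites in all. Vcam1, Sox9 and Clu had no match. Each window was searched on both strands for both forms of an NF-kB-like motif. It was also searched for the AP-1-like motif with the letters TGANTCA, and for a STAT-like motif of the letters TTCNNNGAA. The last motif was the TATA box. In the member promoters no motif overlapped a different motif of this list, and positions are counted with the start base as 0. In the Havcr1 window at chr11:46750918-46751217 (plus strand, 1 of 3 annotated starts) the capitals mark the AP-1-like motif at bases 10 to 16, a motif that 7.81% of 32851 RefSeq promoters hold. These letters lie after the start base, and with the base before them they begin with ATG, the letters of a start codon. Whether any factor binds them was not tested. In the Krt20 window at chr11:99438104-99438403 (minus strand) the capitals mark the TATA box (TATAAA) from base -29 to base -24, which 13.6% of the promoters hold.
Havcr1: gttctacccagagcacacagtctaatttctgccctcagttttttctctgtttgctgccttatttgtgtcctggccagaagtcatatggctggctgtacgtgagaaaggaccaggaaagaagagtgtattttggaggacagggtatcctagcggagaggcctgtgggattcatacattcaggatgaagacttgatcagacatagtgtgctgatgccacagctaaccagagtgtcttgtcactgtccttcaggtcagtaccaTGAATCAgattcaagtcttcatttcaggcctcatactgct
Krt20: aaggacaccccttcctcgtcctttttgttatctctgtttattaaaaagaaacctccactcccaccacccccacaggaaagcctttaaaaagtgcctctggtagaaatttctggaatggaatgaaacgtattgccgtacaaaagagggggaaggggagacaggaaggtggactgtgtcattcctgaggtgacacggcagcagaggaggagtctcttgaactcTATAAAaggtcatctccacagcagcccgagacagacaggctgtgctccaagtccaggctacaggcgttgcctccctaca
The NF-kB-like and STAT-like letters were in 0 of the 10 member windows, against 1.63%, 1.75% and 8.3% of all promoters, which says only that these letters are not in these windows.

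Spp1 (ENSMUSG00000029304, chromosome 5, 104435118 to 104441050, plus strand, GRCm38) encodes osteopontin, a secreted ligand of integrins and of CD44 that is made by distal and injured tubules and by macrophages. A gene of unknown type, Gm42793, overlaps it on the same strand. Spp1 was at 642, 722, 829, 723 and 556 CPM in young, at 1098, 704, 590.1 and 608 in IgG2a and at 789, 1133, 969 and 1373 in aPD1ab. The groups overlapped, with IgG2a replicate 1 among the aPD1ab values and the other IgG2a libraries among the young ones. For Spp1 the rise in aPD1ab over young was 0.63 on the log2 scale (SE 0.19, edgeR adjusted p = 0.0340). That call was lost without aPD1ab replicate 4 (0.49, edgeR adjusted p = 0.0990) and without young replicate 1, 2, 4 or 5. Against IgG2a the difference was 0.50 (SE 0.27, edgeR adjusted p = 0.254), and without IgG2a replicate 1 it was 0.71 (SE 0.23, edgeR adjusted p = 0.0462), where the aPD1ab and IgG2a libraries did not overlap. For IgG2a against young it was 0.17 (SE 0.21, edgeR adjusted p = 0.576).

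Clu (ENSMUSG00000022037, chromosome 14, 65968483 to 65981547, plus strand, GRCm38) encodes clusterin, a secreted chaperone that is induced in damaged tubules. Its level was 537, 435, 494, 713 and 404 CPM in young, 774, 399, 376 and 361 in IgG2a and 526, 280.5, 463 and 495 in aPD1ab. IgG2a replicate 1 had the highest level of all libraries, and the other IgG2a libraries lay below all young libraries. No difference passed the test: log2 fold changes were -0.06 for IgG2a against young (SE 0.26, edgeR adjusted p = 0.892), -0.12 for aPD1ab against IgG2a (SE 0.29, edgeR adjusted p = 0.806) and -0.21 for aPD1ab against young (SE 0.22, edgeR adjusted p = 0.508). Without IgG2a replicate 1 the first of these was -0.37 (SE 0.17, edgeR adjusted p = 0.103).

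Vcam1 (ENSMUSG00000027962, chromosome 3, 116109949 to 116129688, minus strand, GRCm38) encodes an adhesion molecule that binds leukocytes through integrin alpha 4 beta 1 and that marks failed repair of the proximal tubule. An antisense gene, Gm43109, overlaps it, and the strand setting of the counting was not given in the sources used here, so reads of both cannot be told apart. Vcam1 was at 33.5, 36.5, 29.0, 51.7 and 37.9 CPM in young, at 120.0, 237, 217 and 91.4 in IgG2a and at 118, 84.7, 77.3 and 130.3 in aPD1ab. Every aged library was above every young library, and IgG2a and aPD1ab overlapped.

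The log2 fold change of Vcam1 was 2.22 for IgG2a against young (SE 0.29, edgeR adjusted p = 0.00422) and 1.46 for aPD1ab against young (SE 0.20, edgeR adjusted p = 0.00316), the gene with the largest rise in IgG2a among the members. Both calls were kept under all 14 alternatives run for each comparison, with log2 fold changes of 1.99 to 2.41 and 1.32 to 1.61. Between aPD1ab and IgG2a the difference was -0.73 (SE 0.33, edgeR adjusted p = 0.189) and -0.87 without IgG2a replicate 1 (SE 0.33, edgeR adjusted p = 0.0761), so that a difference between the aged groups was not shown.

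Cd44 (ENSMUSG00000005087, chromosome 2, 102811141 to 102901665, minus strand, GRCm38) encodes the receptor for hyaluronan and osteopontin, found on leukocytes and on activated parietal epithelial cells. A small nuclear RNA gene, Gm23731, lies within it on the other strand. Cd44 was at 58.0, 57.9, 58.3, 32.9 and 54.3 CPM in young, at 41.1, 98.0, 98.9 and 123 in IgG2a and at 56.6, 45.3, 39.2 and 61.4 in aPD1ab. The IgG2a group was split, with replicate 1 among the young and aPD1ab values and the other 3 libraries above every library of those groups. With all libraries no difference passed the test: 0.88 for IgG2a against young (SE 0.30, edgeR adjusted p = 0.0693) and -0.87 for aPD1ab against IgG2a (SE 0.32, edgeR adjusted p = 0.135). Without IgG2a replicate 1, Cd44 was higher in IgG2a than in young mice by 1.10 (SE 0.18, edgeR adjusted p = 0.000824) and lower in aPD1ab than in IgG2a, at -1.12 (SE 0.17, edgeR adjusted p = 0.00737). For aPD1ab against young it was -0.03 (SE 0.19, edgeR adjusted p = 0.918).

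High macrophage markers were found in the IgG2a libraries with high Cd44. The 10 markers summed to 1622 to 2804 CPM in young, 2450 in IgG2a replicate 1, 5195 to 7447 in the other IgG2a libraries and 1731 to 4181 in aPD1ab, and none was at 0. The 3 libraries with Cd44 above 90 CPM were the 3 with the highest macrophage sums, and their part in the result was not tested. Within aPD1ab the order was different: replicate 3 had the highest macrophage sum (4181 CPM) and the lowest Cd44 (39.2 CPM), and replicate 4 the highest Cd44 (61.4 CPM) at a sum of 2687 CPM. IgG2a replicate 1 and aPD1ab replicates 2 and 4 had macrophage sums (2450, 1731 and 2687 CPM) inside the young range, and their Vcam1 was at 120.0, 84.7 and 130.3 CPM, above every young library. Endothelial cells can also display VCAM1, and their summed markers were at 520 to 683 CPM in young, 412 to 481 in IgG2a and 259 to 669.4 in aPD1ab. The part of either cell type in the levels of Vcam1 was not tested.

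**Figure D3:**
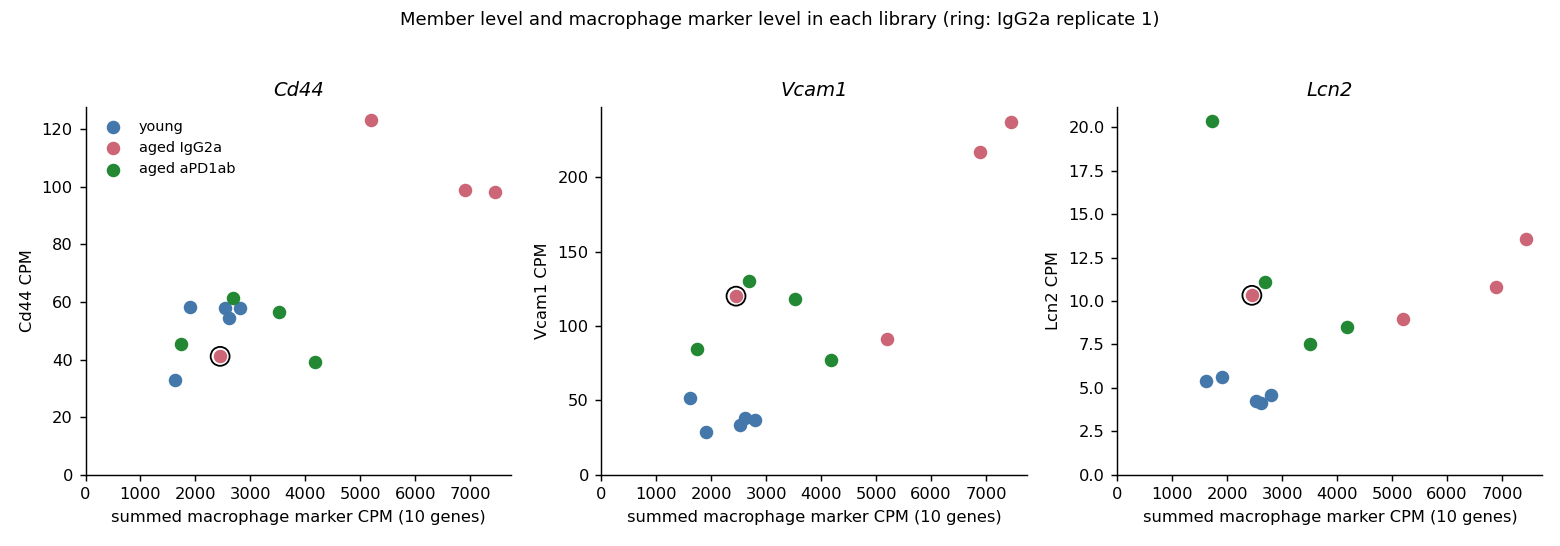
Level of Cd44, Vcam1 and Lcn2 (vertical axes, CPM) against the summed CPM of 10 macrophage marker genes (horizontal axis) in each of the 13 libraries, with a ring on IgG2a replicate 1. The 3 libraries highest in Cd44 have the highest macrophage sums, from 5195 to 7447 CPM, and all aged libraries, 3 with macrophage sums inside the young range among them, lie above young for Vcam1 and Lcn2.

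Sox9 (ENSMUSG00000000567, chromosome 11, 112782224 to 112787760, plus strand, GRCm38) encodes a transcription factor that is switched on in regenerating tubule cells. Sox9 was at 4.60, 3.99, 2.91, 5.11 and 5.18 CPM in young, at 28.8, 4.12, 5.89 and 1.08 in IgG2a and at 10.96, 9.89, 6.05 and 19.9 in aPD1ab. All aPD1ab libraries were above all young libraries. The IgG2a libraries spanned the lowest and the highest level of all 13, the highest being replicate 1. The log2 fold change for aPD1ab against young was 1.44 (SE 0.31, edgeR adjusted p = 0.0102), and without aPD1ab replicate 4 it was 1.06 (SE 0.24, edgeR adjusted p = 0.0224). A fit of all 3 groups together, which shares the large spread of IgG2a, lost that call (edgeR adjusted p = 0.142).

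For IgG2a against young the change of Sox9 was 1.24 (SE 0.68, edgeR adjusted p = 0.213) and turned to -0.15 (SE 0.41, edgeR adjusted p = 0.790) without IgG2a replicate 1. Between the aged groups it was 0.24 (SE 0.79, edgeR adjusted p = 0.865) and 1.61 without that library (SE 0.56, edgeR adjusted p = 0.0625), where the groups did not overlap. The voom fit with sample quality weights, all libraries kept, gave 1.72 and passed the threshold (limma adjusted p = 0.0391). Over the 13 alternatives run for it the value spanned -0.14 to 1.72, so the call and the sign depended on the fit and on single libraries.

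Krt8 (ENSMUSG00000049382, chromosome 15, 101996698 to 102004482, minus strand) and Krt18 (ENSMUSG00000023043, chromosome 15, 102028180 to 102032027, plus strand, both GRCm38) are near neighbours on opposite strands and encode the type II and type I partners of the filament of simple epithelia, proteins that pair in equal amounts. Krt8 was at 72.9, 66.8, 62.4, 86.4 and 73.2 CPM in young, at 112, 56.0, 56.2 and 39.4 in IgG2a and at 84.2, 149, 78.7 and 125 in aPD1ab. Krt18 was at 30.8, 20.7, 26.8, 42.4 and 25.4 CPM in young, at 46.9, 31.0, 26.3 and 17.9 in IgG2a and at 33.8, 32.97, 26.2 and 31.6 in aPD1ab. For both genes IgG2a replicate 1 was the highest of its group and replicate 4 the lowest.

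The rise of Krt8 in aPD1ab over young was 0.61 on the log2 scale (SE 0.19, edgeR adjusted p = 0.0413), a call that was lost without aPD1ab replicate 4 (0.54, edgeR adjusted p = 0.105), without aPD1ab replicate 2 (0.42, edgeR adjusted p = 0.0807) and without young replicate 1, 2, 3 or 5. Against IgG2a the difference was 0.73 (SE 0.33, edgeR adjusted p = 0.186). It passed the test without IgG2a replicate 1, at 1.08 (SE 0.27, edgeR adjusted p = 0.0209), where all aPD1ab libraries were above all IgG2a libraries. Without the same library Krt8 was lower in IgG2a than in young mice, at -0.44 (SE 0.14, edgeR adjusted p = 0.0229), and with it the value was -0.08 (SE 0.24, edgeR adjusted p = 0.837). The change of Krt18 did not pass the test in any comparison, with log2 fold changes of 0.13 (SE 0.26, edgeR adjusted p = 0.757), 0.02 (SE 0.25, edgeR adjusted p = 0.963) and 0.11 (SE 0.18, edgeR adjusted p = 0.709) for IgG2a against young, aPD1ab against IgG2a and aPD1ab against young.

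Per kilobase of exon, the Krt8 level was 1.495 to 2.37 times the Krt18 level in young libraries, 1.33 to 1.75 times in IgG2a and 1.83 to 3.32 times in aPD1ab. The aPD1ab values lay above all IgG2a values and overlapped the young ones. The highest ratios were those of aPD1ab replicates 2 (3.32) and 4 (2.91). This ratio was computed after the levels had been seen and was not tested.

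**Figure D4:**
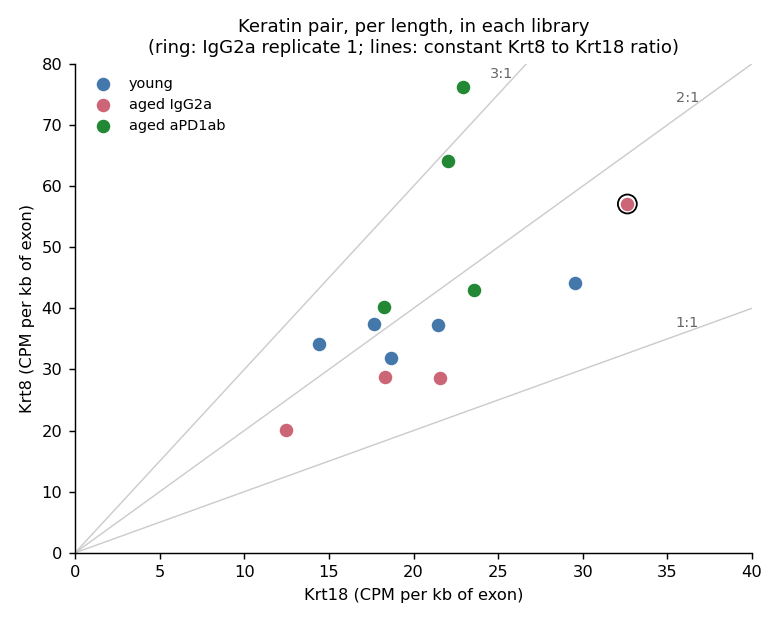
Krt8 against Krt18 in each library, both in CPM per kb of merged exon, with grey lines at constant Krt8 to Krt18 ratios of 1, 2 and 3 and a ring on IgG2a replicate 1. The aPD1ab libraries have Krt18 between the extremes of the young libraries and ratios of 1.83 to 3.32, whereas the IgG2a libraries have ratios of 1.33 to 1.75.

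The promoters of this keratin pair are shown because the transcripts differed in level and in how they varied between groups. In the Krt8 window at chr15:102004293-102004592 (minus strand) the capitals mark the letters of the TATA box and their copy on the other strand, which overlaps them, from base -3 to base 4. These letters lie across the annotated start base, unlike those of Krt20, and whether they act as a TATA box was not tested. In the Krt18 window at chr15:102027966-102028265 (plus strand) no motif of the list was found. GC content was 58.0% and 61.3%.
Krt8: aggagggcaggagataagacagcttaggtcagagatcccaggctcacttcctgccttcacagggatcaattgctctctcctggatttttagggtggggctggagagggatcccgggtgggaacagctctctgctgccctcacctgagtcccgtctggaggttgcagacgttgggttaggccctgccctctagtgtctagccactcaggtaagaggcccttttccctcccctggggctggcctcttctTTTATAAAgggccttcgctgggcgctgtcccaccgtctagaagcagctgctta
Krt18: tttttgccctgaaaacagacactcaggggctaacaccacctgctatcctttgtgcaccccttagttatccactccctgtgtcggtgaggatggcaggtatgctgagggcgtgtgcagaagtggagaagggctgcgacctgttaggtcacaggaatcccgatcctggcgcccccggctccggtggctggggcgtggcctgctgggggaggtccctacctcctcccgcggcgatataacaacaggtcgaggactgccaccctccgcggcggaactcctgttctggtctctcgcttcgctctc

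In IgG2a replicate 1 the members with its group's highest level were Sox9, Krt8, Krt18, Clu and Spp1, and Cd44 was at its lowest there. Some epithelial marker sums, but not all, were high in that library too. Markers of the loop of Henle and distal tubule summed to 13248 CPM, against 5576 to 6090 in the other IgG2a libraries and 6333 to 9091 in young. Umod (5536 CPM) and Slc12a3 (6082 CPM) made up most of that sum. Parietal epithelial markers summed to 69.3 CPM, against 38.2 to 39.2 in the other IgG2a libraries and 59.5 to 68.6 in young. The proximal tubule sum (8523 CPM) was above the other IgG2a libraries (1674 to 2623) but below every young library (10939 to 16680). The podocyte sum (605 CPM) lay within the range of the other IgG2a libraries (572 to 762). The part of these cells in the levels of Sox9, Krt8, Krt18, Clu and Spp1 was not tested.

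A wider list of 26 other genes of kidney injury and repair was read beside the members. For IgG2a against young, 5 were called higher and 2 lower, where 9.05% and 8.38% of all genes were, with a median log2 fold change of 0.30 against 0.04 over all genes. Without IgG2a replicate 1 the counts were 9 higher and 4 lower, beside 22.1% and 23.5% of all genes, with a median of 0.08. The lectin Lgals3 (galectin-3) was at 91.5 to 104 CPM in young and at 165, 342, 231 and 237 in IgG2a, a log2 fold change of 1.40 (SE 0.20, edgeR adjusted p = 0.00476). Hmox1, the heme-degrading stress enzyme heme oxygenase 1, rose by 1.75 (SE 0.32, edgeR adjusted p = 0.0118), with overlap between the groups. IgG2a replicates 2, 3 and 4, where Lgals3 was highest, had macrophage sums of 5195 to 7447 CPM. The part of macrophages in the levels of Lgals3 and Hmox1 was not tested. For aPD1ab against young 9 of the 26 were called higher and 0 lower, beside 12.4% and 9.97% of all genes, with a median of 0.31, and without aPD1ab replicate 4 the counts were 6 and 1, beside 8.3% and 6.32%. Lgals3 rose there by 0.92 (SE 0.11, edgeR adjusted p = 0.00288) and the neutrophil-attracting chemokine Cxcl1 by 1.32 (SE 0.27, edgeR adjusted p = 0.00897).

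Between the aged groups 0 of these 26 genes were called by edgeR, with 4 at an unadjusted p under 0.05. DESeq2 called 1 higher and 0 lower, beside 8.61% and 5.59% of all genes, and voom 3 higher and 3 lower, beside 20.9% and 18.8%. When IgG2a replicate 1 was left out, 6 were called higher and 4 lower in aPD1ab, counts that lie near the 17.1% and 13.2% of all genes called in that fit. Itgb6, the integrin beta 6 chain of tubular epithelium, was at 36.8, 70.9, 48.9 and 44.2 CPM in aPD1ab and at 43.6, 18.5, 18.6 and 17.6 in IgG2a, a log2 fold change of 1.03 with all libraries (SE 0.33, edgeR adjusted p = 0.115) and 1.43 without replicate 1 (SE 0.23, edgeR adjusted p = 0.00777). The filament gene Vim differed by -0.82 without that library (SE 0.18, edgeR adjusted p = 0.0149).

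Of 14 transcription factors linked to injury, 5 were called higher and 0 lower in IgG2a against young, beside 9.05% and 8.38% of all genes, with a median log2 fold change of 0.62. Leaving out IgG2a replicate 1 made it 8 higher and 0 lower, beside 22.1% and 23.5%. In aPD1ab against young 3 were called higher and 0 lower, beside 12.4% and 9.97%, with a median of 0.43. Cebpb, a factor of the acute-phase response, was at 5.72 to 9.70 CPM in young, 12.6 to 40.9 in IgG2a and 19.5 to 34.2 in aPD1ab. It rose by 1.76 (SE 0.34, edgeR adjusted p = 0.0140) and 1.83 (SE 0.20, edgeR adjusted p = 0.00241). Relb, a subunit of NF-kB, rose in IgG2a by 1.201 (SE 0.28, edgeR adjusted p = 0.0233), and Cebpd in aPD1ab by 1.15 (SE 0.26, edgeR adjusted p = 0.0133). Between the aged groups 0 of the 14 were called by edgeR, with 2 at an unadjusted p under 0.05. DESeq2 called 0, beside 8.61% of all genes higher and 5.59% lower, while voom called 1 higher and 2 lower, beside 20.9% and 18.8%. With IgG2a replicate 1 left out, 2 of the 14 were called lower in aPD1ab, a share near the 13.2% of all genes called lower: Runx1, with -1.35 (SE 0.38, edgeR adjusted p = 0.0301), and Nfkb1, with -0.81 (SE 0.21, edgeR adjusted p = 0.0258). Both are factors that leukocytes also express, and as for Cd44 the libraries with the highest values were those with the highest macrophage sums. The part of leukocytes in the levels of Runx1 and Nfkb1 was not tested.

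Of 16 receptors and ligands that bind the members' products, 14 were tested. In IgG2a against young 2 were called higher and 2 lower, beside 9.05% and 8.38% of all genes. Without IgG2a replicate 1 the counts were 5 and 3, beside 22.1% and 23.5%. In aPD1ab against young 1 was called higher and 3 lower, beside 12.4% and 9.97%. Without aPD1ab replicate 4 the counts were 1 and 1, beside 8.3% and 6.32%. For aPD1ab against IgG2a edgeR called 0, with 7 at an unadjusted p under 0.05. DESeq2 called 2 higher and 2 lower, beside 8.61% and 5.59% of all genes, and voom 2 higher and 6 lower, beside 20.9% and 18.8%. Leaving out IgG2a replicate 1 gave 2 higher and 5 lower, beside 17.1% and 13.2% of all genes. Lrp2 was then at 2.65 (SE 0.50, edgeR adjusted p = 0.00973), Itga4 at -1.40 (SE 0.21, edgeR adjusted p = 0.00737) and Havcr2, the gene of the checkpoint receptor TIM-3, at -1.13 (SE 0.21, edgeR adjusted p = 0.00866). Trem2, a myeloid receptor that binds clusterin, was at 3.54 to 5.22 CPM in young, 15.7 to 54.7 in IgG2a and 12.1 to 29.0 in aPD1ab, with log2 fold changes of 3.27 (SE 0.33, edgeR adjusted p = 0.00155) and 2.26 (SE 0.23, edgeR adjusted p = 0.00205) against young. Lrp2 (megalin), the proximal tubule receptor for lipocalin-2 and clusterin, was at 717 to 1117 CPM in young and at 496, 82.0, 140 and 110 in IgG2a, a log2 fold change of -2.09 (SE 0.48, edgeR adjusted p = 0.0234), and of -2.96 without IgG2a replicate 1 (SE 0.21, edgeR adjusted p = 5.88e-06). The summed proximal tubule markers, a sum that includes Lrp2 itself, were low in the same libraries. Lrp2 differed by -0.34 between aPD1ab and young (SE 0.34, edgeR adjusted p = 0.494). Itga4, the alpha 4 chain of the VCAM1 receptor, was at 64.5 to 85.3 CPM in young and 28.6 to 46.2 in aPD1ab, a log2 fold change of -1.02 (SE 0.15, edgeR adjusted p = 0.00374). The ligand gene Vcam1 was thus higher, and a chain of its receptor lower, in aPD1ab than in young mice.

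Among 9 other keratins, 5 were tested in each main comparison. Krt19, a keratin of ductal and parietal epithelium, rose in IgG2a by 1.52 (SE 0.39, edgeR adjusted p = 0.0307) from 0.410 to 1.26 CPM in young to 1.21 to 3.43 in IgG2a. It was the only keratin of this list called for IgG2a against young, beside 9.05% of all genes higher and 8.38% lower. For aPD1ab against young, 1 was called higher and 2 lower, beside 12.4% and 9.97% of all genes. The 2 lower were Krt80 by -0.99 (SE 0.20, edgeR adjusted p = 0.00899) and Krt23 by -1.22 (SE 0.33, edgeR adjusted p = 0.0235). Without aPD1ab replicate 4, 7 were tested, with 1 called higher and 1 lower, beside 8.3% and 6.32% of all genes. These were Krt19, at 1.39 (SE 0.39, edgeR adjusted p = 0.0438), and Krt80, at -0.98 (SE 0.23, edgeR adjusted p = 0.0264), so the call of Krt23 was lost. Krt7, the most abundant of these keratins, differed by -0.30 (SE 0.21, edgeR adjusted p = 0.322) for IgG2a and -0.12 (SE 0.20, edgeR adjusted p = 0.684) for aPD1ab. For aPD1ab against IgG2a edgeR called 0 of them, with 2 at an unadjusted p under 0.05. DESeq2 called 1 higher and 0 lower, beside 8.61% and 5.59% of all genes, and voom 1 higher and 1 lower, beside 20.9% and 18.8%. Without IgG2a replicate 1 edgeR called Krt10 higher, at 1.01 (SE 0.29, edgeR adjusted p = 0.0317), and Krt80 lower, at -0.94 (SE 0.26, edgeR adjusted p = 0.0301), in aPD1ab than in IgG2a, beside 17.1% and 13.2% of all genes. In that setting IgG2a against young gave 1 keratin higher and 2 lower, beside 22.1% and 23.5% of all genes, with Krt10 at -0.77 (SE 0.24, edgeR adjusted p = 0.0252). The called keratins moved in both directions, and with so few tested such small counts describe these genes only.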

How the data were processed

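Per the labels, mRNA of MACS-sorted podocyte fractions was sequenced from TruSeq libraries. The authors deposited whole-number counts of reads per Ensembl gene, without normalization. The submitters' processing notes name HISAT2, featureCounts and mm10 (GRCm38). The strand setting and versions were not given in the sources used here. Columns were tied to groups by the numbers printed in a figure of the paper, and 2 columns could not be tied and were not used. Symbols, positions and exon lengths came from GENCODE M21.

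Counts were fitted per pair of groups in R 4.3.3 with edgeR 4.0.16 (quasi-likelihood, robust, TMM, filterByExpr, Benjamini-Hochberg over all genes tested, adjusted p under 0.05). CPM used TMM factors over all 13 libraries. DESeq2 1.42.0, limma 3.58.1 voom with sample weights, RLE factors, no filter, a fit of all groups, a 2-fold minimum and leaving out each library were alternatives. On counts simulated with a dispersion of 0.05, 82% of 2-fold changes were recovered for IgG2a against young (15953 genes) and for aPD1ab against young (15986 genes), and 75% for aPD1ab against IgG2a (15530 genes), with 100% of 3-fold changes and 6 to 9 false calls. The simulated spread holds no library that stands apart, and the dispersion was set rather than estimated from these libraries. Changes were simulated only in genes with higher counts, so genes with few reads, such as Havcr1 in IgG2a against young, are not covered. The shares recovered therefore do not say how many real changes the fits would call.

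The members and gene lists were chosen with earlier results of these data known. From each other list and comparison, at most the 2 most abundant genes and the 2 with the smallest p were named. Ly6g was named after its values were seen.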

Additional observations from a re-analysis of the deposited data

Results flagged for a closer look

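Each of the 10 members was examined in the 3 groups for a library far from the others, by Dixon's criterion on its gap to the nearest library over the range of the group. Chance marks about 1 in 20 groups, and 5 of 30 were marked, which share libraries with each other. Havcr1 was at 26.5 CPM in aPD1ab replicate 4, and Krt20 was at 2.95 CPM in the same library. Clu was at 774 CPM in IgG2a replicate 1, the library that stood apart on the leading principal component. Cd44 was at 32.9 CPM in young replicate 4, below the other young libraries. Krt20 was at 0.642 CPM in IgG2a replicate 3, a value from 12 reads beside libraries with 0 to 3.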

How the results depend on the processing

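The calls of Lcn2 and Vcam1 against young held under every alternative in both aged groups. DESeq2 and voom with quality weights each called 4 members higher in IgG2a than in young mice, adding Havcr1 and Cd44, and over all genes DESeq2 called 2094 lower, voom 3875 higher and 3548 lower, a fit with no filter 828 higher, and the 2-fold minimum 621 higher and 732 lower. Between aPD1ab and IgG2a, over all genes, DESeq2 called 1293 higher and 839 lower, the fit of all 3 groups 1861 and 1002, and voom 3240 and 2920, with 3 members higher and 1 lower. Under voom Lcn2 turned to -0.16 and Clu to 0.22, and with no filter Krt18 to -0.0049. For aPD1ab against young the fit of all 3 groups called 3 members higher, and the 2-fold minimum left 336 genes higher and 430 lower. The member counts of DESeq2 for IgG2a against young, and of the fit of all 3 groups for aPD1ab against young, stand without a matching share. They are therefore not read as a result about the members. The causes were not tested.

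Leaving out each library gave the following ranges. For IgG2a against young, 2 to 4 members and 260 to 3584 genes were higher, and 0 to 1 members and 293 to 3813 genes lower. Log2 fold changes that turned spanned -0.0553 to 0.27 for Spp1, -0.37 to 0.0888 for Clu, -0.15 to 1.59 for Sox9, -0.44 to 0.0789 for Krt8 and -0.14 to 0.30 for Krt18. For aPD1ab against IgG2a, 0 to 2 members and 0 to 2702 genes were higher, and 0 to 1 members and 0 to 2086 genes lower. Those that turned spanned -0.30 to 0.29 for Lcn2, -0.22 to 0.17 for Clu, -0.14 to 1.61 for Sox9 and -0.15 to 0.27 for Krt18. For aPD1ab against young, 3 to 6 members and 1293 to 2122 genes were higher and 1024 to 1746 genes lower, and Cd44 spanned -0.17 to 0.0662. The highest count for IgG2a, and every count above 0 between the aged groups, came without IgG2a replicate 1.

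No paired analysis was possible because the columns carry no replicate number of the labels. Low counts limit Havcr1 and Krt20, and 4 or 5 libraries a group limit the precision of every other value.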
